A study of Heterocephalus glaber with 23 samples.

Results

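Livers of breeding female naked mole-rats (NMR), the queens of their colonies, were compared with livers of non-breeding litter sisters by RNA-seq. The members were all libraries labelled as female breeders, 6 animals aged between 3.3 and 3.7 years, and all those labelled as female non-breeders, 5 animals aged between 2.4 and 4 years. These 11 libraries stand among 23 liver libraries of the series, which also holds 6 male breeders and 6 male non-breeders. Of 16339 genes in the count table, 12306 had enough reads to be tested. All animals were of the species Heterocephalus glaber with no genetic change and no drug treatment apart from isoflurane anesthesia at tissue collection. Female breeders had been taken out of their natal colony and paired with an unrelated male, and their livers were collected weeks after the last pregnancy. By the study's account, not every queen had the same number of litters. Non-breeders stayed as workers in the colonies in which they were born. Colony, housing and pregnancy history therefore go with status and cannot be told apart from it. The labels do not say which animals share a litter, and each animal was taken as an independent replicate.

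In an NMR colony a single queen reproduces, and the other females stay sexually immature for as long as they live under her. A worker that is removed and paired can become a queen, which involves maturation of the ovaries and exposure to ovarian steroids. The liver is a target of such hormones in mammals. It makes most plasma proteins, including the carriers of steroid and thyroid hormones, and its secretory, lipid and amino acid metabolism responds to pregnancy and feeding.

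The female breeder libraries held between 11826665 and 16969851 counts and the female non-breeder libraries between 15209006 and 22969366. Read length also followed status: all female breeder libraries were read to one length and all female non-breeder libraries to another, slightly longer. Read length therefore cannot be told apart from status, and neither can a sequencing run if the lengths mark separate runs. The difference in mean total had an exact permutation p of 0.0303 (two-sided) and a p of 0.212 after Benjamini-Hochberg adjustment over 7 library measures. Levels are given as CPM, read counts scaled to a common library size. In each library a small set of genes dominated, the leading 10 holding 23.3% ± 1.43 of reads in female breeders and 23.0% ± 0.943 in female non-breeders (SD, n = 6 and 5). Across genes, the mean Pearson r of log2 CPM was 0.957 for pairs of female breeders, 0.965 for pairs of female non-breeders and 0.962 for pairs of unlike status. On the first principal component of the 11 libraries, which held 28.8% of the variance, female breeder 6 stood farthest from the others. No library was a copy of another: the chi-square per degree of freedom was at least 36.4 for any pair within a group, where copies would give about 1. Counts vary with the number of cells of a type and with the RNA per cell, and in whole liver these cannot be told apart.

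The question of this comparison was which liver genes differ with female reproductive status. None of the 12306 genes (0%) passed an adjusted p of 0.05 in edgeR, and the smallest adjusted p was 0.811. At an unadjusted p under 0.05 there were 241 genes higher in female breeders (1.96% of those tested) and 214 lower (1.74%). These 455 genes are fewer than the 615 expected at that p if no gene differed. DESeq2 called 5 genes when all 23 libraries were fitted and 4 when only the 11 female libraries were, and limma voom called 0, with 579 genes at an unadjusted p under 0.05. The median log2 fold change over all genes, female breeders over female non-breeders, was 0.01. The genes described from here on are thus those with the smallest p, those of lists chosen for liver functions and those fixed by name, and the text gives their values without a claim that they differ.

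**Figure D1:**
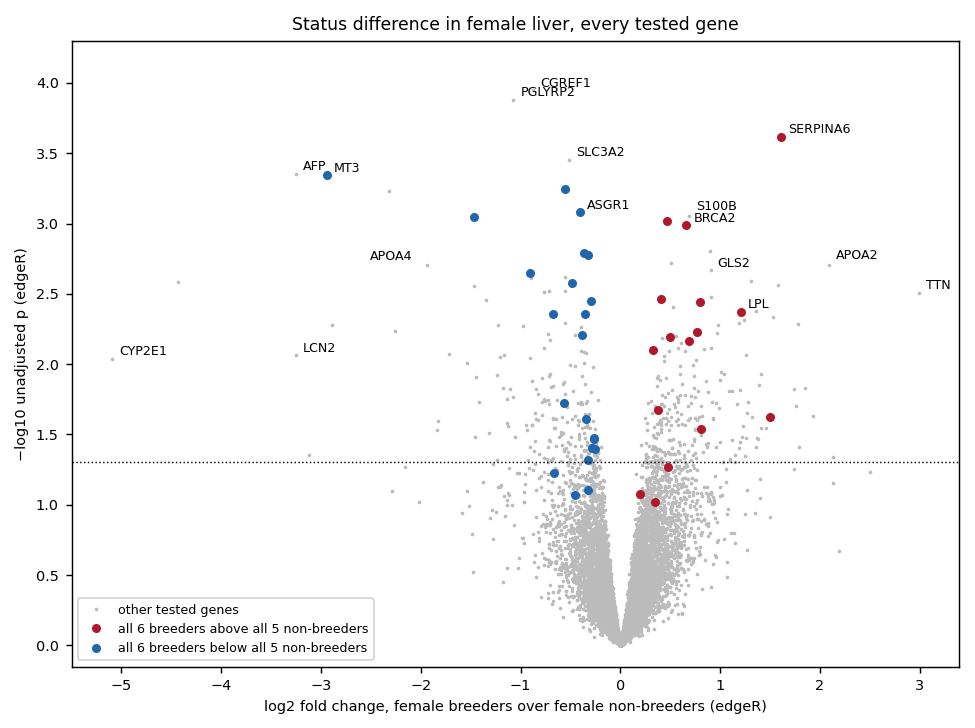
Status difference in female liver for every tested gene. The x axis gives the log2 fold change of female breeders over female non-breeders and the y axis the unadjusted edgeR p as −log10. Each point is 1 gene, the dotted line is an unadjusted p of 0.05, and the coloured points are the 16 genes with all 6 breeders above all 5 non-breeders and the 22 with all 6 below. Among the genes labelled, CYP2E1 has the widest fold change and TTN the widest of those higher in female breeders. Both have groups that overlap.

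Female groups did not overlap in 38 of the tested genes in all. In 16 genes (0.13% of those tested) every female breeder lay above every female non-breeder, and in 22 (0.179%) every one lay below. With 6 and 5 animals labelled at random, each order would have an exact permutation probability of 0.00216 per gene, above both shares. SERPINA6, which encodes corticosteroid-binding globulin, the plasma carrier of glucocorticoids and progesterone, led the genes above. It ranged between 13.8 and 46.5 CPM with a median of 23.3 in female breeders, against 5.79, 9.38, 10.8, 13.7 and 5.87 CPM in female non-breeders. The lowest breeder lay just above the highest non-breeder. The log2 fold change was 1.61 ± 0.37 (SE, edgeR adjusted p = 0.898), with a 95% interval of 0.84 to 2.38. DESeq2 called it, with an adjusted p of 0.032 over all libraries and of 0.0185 over the female libraries alone.

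The other genes with all breeders above had smaller fold changes. MED12L, a paralogue of a Mediator subunit of the transcription machinery, lay between 13.2 and 20.9 CPM with a median of 15.8 in female breeders, against 9.54, 8.06, 9.72, 8.16 and 12.7 CPM in female non-breeders. Its log2 fold change was 0.79 ± 0.25 (SE, edgeR adjusted p = 0.9996), and DESeq2 called it in the fit of the female libraries alone (adjusted p = 0.0335). BRCA2, which acts in repair of DNA breaks by homologous recombination, lay between 5.33 and 7.78 CPM with a median of 6.89 in female breeders, against 4.32, 3.88, 3.87, 4.69 and 4.76 CPM in female non-breeders. Both genes thus separated the groups by a narrow gap. AASDH, SMARCAD1, a chromatin remodeller, PDGFB, a growth factor chain, CEP290, a centrosome and cilium protein, STOX2 and GEMIN2, a factor of spliceosome assembly, also had every breeder above, with log2 fold changes between 0.33 and 0.77. S100B, a calcium-binding protein, TTC36, RCAN2, a calcineurin inhibitor, and CCDC85A were among the 15 higher genes of smallest p with groups that overlapped, at log2 fold changes of 0.68, 0.51, 1.31 and 1.58, as was GLS2. GLS2, the liver form of glutaminase, lay between 184 and 366 CPM with a median of 296 in female breeders, against 149, 147, 234, 143 and 89.3 CPM in female non-breeders. Only female non-breeder 3 reached into the range of the breeders, and the log2 fold change was 0.89 ± 0.25 (SE).

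Among the 22 genes with all breeders below, MT3, a metallothionein, had the widest fold change, but it was counted in at most 4 reads per female breeder library, against 50, 15, 16, 5 and 5 reads in female non-breeders. ASGR1, a subunit of the asialoglycoprotein receptor that clears plasma glycoproteins, had more reads. It lay between 285 and 342 CPM with a median of 320 in female breeders, against 410, 355, 445, 423 and 449 CPM in female non-breeders, a log2 fold change of -0.40 ± 0.11 (SE). RPN1, a subunit of the oligosaccharyltransferase that adds sugar chains to new secretory proteins, lay between 209 and 249 CPM with a median of 232 in female breeders, against 314, 304, 352, 254 and 250 CPM in female non-breeders. Its gap was under 2 CPM wide, and its log2 fold change was -0.35 ± 0.11 (SE). GALNT10, an enzyme that starts O-linked sugar chains, had a log2 fold change of -0.55 ± 0.14 (SE). ANO10, an anoctamin, and PDZK1, a scaffold for membrane transporters, had log2 fold changes of -0.37 ± 0.10 and -0.48 ± 0.14 (SE). C19orf10, KCNK7, a potassium channel subunit, and PITPNA, a lipid transfer protein, also lay below in every breeder. SLC35G2, of a family of solute carriers, overlapped between the groups with a log2 fold change of -2.31 ± 0.58 (SE) at a level of 0.629 CPM in female breeders and 3.21 CPM in female non-breeders. PTGES, a prostaglandin E synthase, lay between 1.29 and 1.75 CPM with a median of 1.59 in female breeders, against 2.42, 2.94, 10.9, 2.57 and 2.33 CPM in female non-breeders. Its log2 fold change was -1.47, and -0.72 without female non-breeder 3.

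The 3 genes of smallest p among the lower ones overlapped between the groups. CGREF1, a secreted protein that restrains cell growth, lay between 4.55 and 11.3 CPM with a median of 8.07 in female breeders, against 17.5, 12.6, 20.3, 10.5 and 12.5 CPM in female non-breeders. PGLYRP2, a plasma enzyme that cuts bacterial peptidoglycan, lay between 87.0 and 201 CPM with a median of 160 in female breeders, against 458, 182, 340, 412 and 241 CPM in female non-breeders. In each gene 1 breeder or more reached the lowest non-breeder. The log2 fold changes were -0.87 ± 0.19 for CGREF1 and -1.08 ± 0.23 for PGLYRP2 (SE, edgeR adjusted p = 0.811 for both), and DESeq2 over all libraries called both (adjusted p = 0.032). SLC3A2, the heavy chain that several amino acid transporters need at the cell surface, lay between 91.0 and 131 CPM with a median of 104 in female breeders, against 162, 190, 138, 137 and 129 CPM in female non-breeders. Female breeder 6 alone lay above the lowest non-breeder. On the log2 scale SLC3A2 differed by -0.51 ± 0.12 (SE, adjusted p = 0.898 by edgeR).

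**Figure D2:**
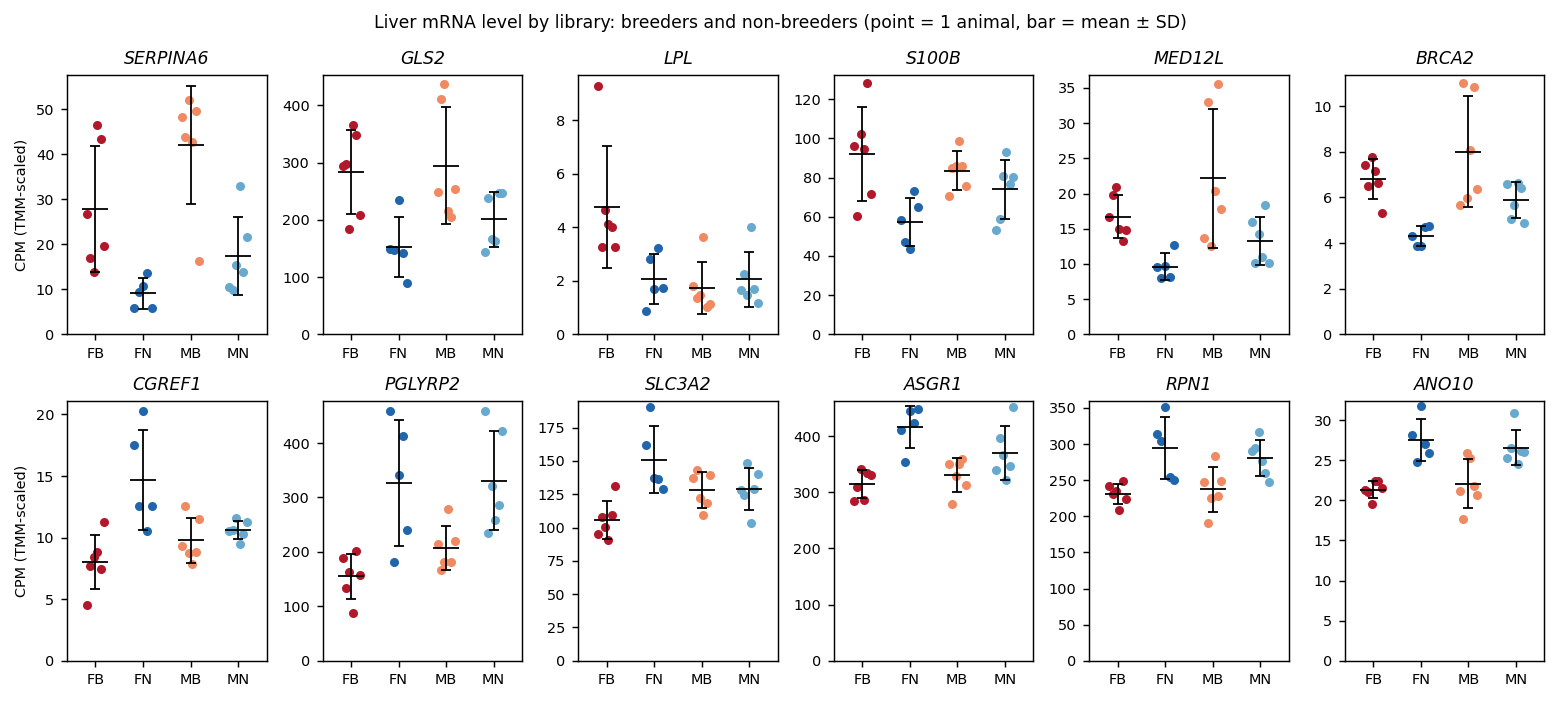
CPM per library for 12 genes of small p, with female breeders (FB), female non-breeders (FN), male breeders (MB) and male non-breeders (MN) from left to right. Points are animals, and bars give the mean and SD. SERPINA6 averaged 27.9 CPM in female breeders and 9.11 CPM in female non-breeders, and it averaged 42.2 CPM in male breeders and 17.4 CPM in male non-breeders.

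Apolipoprotein genes stood on both sides of 0. APOA2, a structural protein of high-density lipoprotein, lay between 35.6 and 571 CPM with a median of 177 in female breeders, against 20.8, 111, 89.0, 26.5 and 23.9 CPM in female non-breeders. Female breeder 6 was the highest and female breeder 3 lay within the range of the non-breeders. APOA4, an apolipoprotein of triglyceride-rich particles, lay between 12.8 and 130 CPM with a median of 86.9 in female breeders, against 489, 406, 40.8, 292 and 324 CPM in female non-breeders. Of the non-breeders, 4 lay above every breeder, and female non-breeder 3 lay below 5 of them. The log2 fold changes were 2.09 ± 0.60 for APOA2 and -1.93 ± 0.55 for APOA4 (SE, edgeR adjusted p = 0.9996 for both). LPL, lipoprotein lipase, which is low in adult liver of other mammals, was at 3.25 to 9.28 CPM with a median of 4.08 in female breeders, against 0.891, 2.81, 1.72, 3.21 and 1.75 CPM in female non-breeders. Every breeder lay above every non-breeder, the closest pair being nearly equal. LCAT, the plasma enzyme that esterifies cholesterol, and TM6SF2, which acts in lipid loading of secreted particles, had log2 fold changes of -0.41 ± 0.18 and -0.33 ± 0.14 (SE). Of 33 tested genes of lipoprotein transport, 13 lay above 0 and 20 below, and none passed the threshold in edgeR.

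Genes of the secretory pathway lay mostly below 0. Of 44 tested genes of the translocon, signal peptidase and N-glycosylation, 32 lay below 0 and the median log2 fold change was -0.10. SEC61A1, the pore through which new proteins enter the endoplasmic reticulum, was at -0.31 ± 0.14, and RPN2, a partner of RPN1, was at -0.30 ± 0.14 (log2 fold change ± SE). Of 29 tested genes of COPII and COPI vesicles, 23 lay below 0 with a median of -0.11, among them KDELR3, which returns resident proteins to the endoplasmic reticulum, at -0.72 ± 0.26, and SEC24D, SURF4 and TMED10 between -0.36 and -0.23. Of 33 chaperones and stress response genes of the endoplasmic reticulum, 25 lay below 0 with a median of -0.17. P4HB, a protein disulfide isomerase, lay between 1203 and 1790 CPM with a median of 1560 in female breeders, against 2226, 1850, 2209, 1889 and 1587 CPM in female non-breeders. Only female non-breeder 5 stood well within the range of the breeders. CALR, a lectin chaperone, had a log2 fold change of -0.54 ± 0.22, and HSPA5, the main chaperone of this compartment, one of -0.40 ± 0.26 (SE). In males, 40 of the translocon genes, 16 of the vesicle genes and 28 of the chaperone genes also lay below 0. Their male medians were -0.10, -0.03 and -0.19, where the male median over all tested genes was -0.02. None of the genes of these lists passed the threshold in edgeR, and the mean log2 CPM of each list overlapped between the female groups. Single libraries moved the female values by over 1.5 times. The translocon median was -0.03 without female non-breeder 3 and -0.15 without female breeder 3, the COPII and COPI median -0.07 without female breeder 4, and the chaperone median -0.11 without female non-breeder 2. HSPA5 was at -0.14 without female non-breeder 2 and -0.61 without female breeder 2, while CALR, SEC61A1 and RPN2 were at -0.35, -0.18 and -0.20 without female non-breeder 3.

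Plasma proteins were described by the same counts, where 5891 of all 12306 genes lay below 0. Of 27 tested acute phase plasma proteins, 26 lay below 0 with a median log2 fold change of -0.32, the lowest of the lists by function. ORM1, an acute phase carrier protein, lay between 966 and 5186 CPM with a median of 2511 in female breeders, against 8616, 5925, 15473, 6308 and 3739 CPM in female non-breeders. HP, which binds free haemoglobin, averaged 5841 ± 2737 CPM in female breeders and 13481 ± 10845 CPM in female non-breeders (SD, n = 6 and 5). Female non-breeder 3 held the highest ORM1 and HP of the 11. LCN2, another acute phase gene, was at 107 CPM in that library and at 5.75 CPM or less in the other 10, and its log2 fold change of -3.25 was -0.31 without it. Of 35 complement genes, 30 lay below 0 with a median of -0.25, among them CLU at -0.72 ± 0.24 and CPN1, the catalytic subunit of carboxypeptidase N, at -0.72 ± 0.22 (log2 fold change ± SE). Of 29 coagulation and fibrinolysis genes, 22 lay below 0 with a median of -0.14, PLAT, tissue plasminogen activator, at -0.56 ± 0.16 among them. ALB, the main plasma protein, averaged 108859 ± 30472 CPM in female breeders and 109361 ± 28385 CPM in female non-breeders (SD, n = 6 and 5), a log2 fold change of -0.01 with a 95% interval of -0.43 to 0.42. Without female non-breeder 3 the complement median was -0.15, and HP and CLU were at -0.60 and -0.47. The coagulation median was -0.07 without female non-breeder 4 and the acute phase median -0.48 without female breeder 2. In males, 24 of the acute phase, 32 of the complement and 25 of the coagulation genes also lay below 0. Their male medians were -0.20, -0.30 and -0.11.

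Genes of amino acid supply lay on either side. Besides GLS2, PRODH, the first enzyme of proline breakdown, had a log2 fold change of 0.57 ± 0.22, while PYCR1, the last enzyme of proline synthesis, had one of -0.90 ± 0.26 (SE). Of 28 tested targets of ATF4, the transcription factor of the amino acid response, 21 lay below 0 with a median of -0.20, which was -0.07 without female non-breeder 2. Lower in female breeders among them were SLC3A2, PCK2, a mitochondrial enzyme of glucose synthesis, at -0.58 ± 0.22, and GARS, glycyl-tRNA synthetase. FGF21, a hormone of the fasted liver, lay between 1.11 and 6.91 CPM with a median of 4.84 in female breeders, against 1.59, 31.4, 3.08, 32.2 and 14.5 CPM in female non-breeders. Of the non-breeders, 3 lay above every breeder and 2 lay among them. STC2, a secreted glycoprotein, went the other way at 1.26 ± 0.44 (log2 fold change ± SE). Of 61 tested genes of the urea cycle and amino acid breakdown, 38 lay above 0 with a median of 0.06, which was 0.02 without female breeder 5 and 0.13 without female non-breeder 1. Of 29 genes of mitochondrial fatty acid oxidation and ketone production, 23 lay below 0 with a median of -0.16 (-0.06 without female breeder 2), with ACADVL, which starts the oxidation of long-chain fatty acids, at -0.29 ± 0.13 (log2 fold change ± SE).

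Hormone carriers and receptors were of interest because queens and workers differ in ovarian activity. SERPINA7, the thyroxine-binding globulin, lay between 94.8 and 169 CPM with a median of 115 in female breeders, against 150, 154, 150, 182 and 154 CPM in female non-breeders. Only female breeder 6 reached the non-breeders, and the log2 fold change was -0.35 ± 0.15 (SE), opposite in sign to that of SERPINA6. SHBG, the carrier of sex steroids in human plasma, was at 0.212 CPM or less in all 11 libraries, and PGR, the progesterone receptor, had reads in 1 of them. NR3C1, the glucocorticoid receptor, and HSD11B1, which regenerates active glucocorticoid, both had log2 fold changes of -0.08, with standard errors of 0.33 and 0.18. FKBP5, a chaperone that glucocorticoids induce, lay between 34.0 and 90.9 CPM with a median of 60.7 in female breeders, against 168, 202, 88.2, 57.7 and 74.4 CPM in female non-breeders. Of the non-breeders, 2 stood above all other animals. Of 33 tested steroid genes, 12 lay above 0 and 21 below. Of 22 estrogen-responsive genes, 9 lay above 0 and 13 below, and a part of estrogen in these values was not tested. In the insulin-like growth factor system, IGF1 had a log2 fold change of -0.31 ± 0.25 and IGFBP1 one of -0.72 ± 0.39 (SE), which were -0.15 without female non-breeder 3 and -0.44 without female non-breeder 1.

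Several genes differed far more among animals of 1 status than between the statuses. CYP2E1, an ethanol- and ketone-metabolising cytochrome P450 of hepatocytes near the central vein, was at 0.637 to 845 CPM with a median of 121 in female breeders, against 14757, 14.4, 6.60, 15907 and 5026 CPM in female non-breeders. Female non-breeders 1, 4 and 5 stood above every breeder, while non-breeders 2 and 3 lay below 4 or more of the 6 breeders. The log2 fold change was -5.10 ± 1.79 (SE, edgeR adjusted p = 0.9996). In males, CYP2E1 was at 8.14, 143, 2460, 371, 23.8 and 10.4 CPM in breeders, against 11725, 4967, 3027, 12.5, 7754 and 8461 CPM in non-breeders. Male non-breeder 4 was low and the other 5 lay above every male breeder. AFP, alpha-fetoprotein, a fetal plasma protein of the albumin family, lay between 3.90 and 17.4 CPM with a median of 5.77 in female breeders, against 95.7, 3.38, 2.15, 238 and 19.6 CPM in female non-breeders. The same non-breeders 1, 4 and 5 stood above every breeder, and non-breeders 2 and 3 stood below every breeder. The log2 fold change of AFP was -3.25 ± 0.79 (SE, edgeR adjusted p = 0.898) and ranged between -3.70 and -2.01 as single libraries were left out.

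ESR1 and IGF1 followed a like division of most females, noticed after the values were seen. ESR1, the estrogen receptor alpha, was at 2.71 to 59.0 CPM with a median of 6.07 in female breeders, against 2.99, 29.1, 33.5, 2.25 and 3.65 CPM in female non-breeders. Female breeder 6 and female non-breeders 2 and 3 thus held the 3 highest values. The same animals held the 3 lowest values of CYP2E1 apart from female breeder 5, whose 14.3 CPM was level with the 14.4 CPM of female non-breeder 2. Female breeder 5 went against the division, with the lowest ESR1 of the breeders at 2.71 CPM. IGF1 was at 477 CPM in female breeder 6, against 523 and 612 CPM in female non-breeders 2 and 3, the 3 highest of the 11. These animals come from both statuses, and the log2 fold change of ESR1 by status was 0.05 ± 0.75 (SE). Males did not follow the division throughout. Male non-breeder 3 had the most ESR1 reads of the males, 178, with 47122 reads of CYP2E1. Male breeder 1 had 30 reads of ESR1 with 147 of CYP2E1, while male breeder 6 had 104 with 174.

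**Figure D3:**
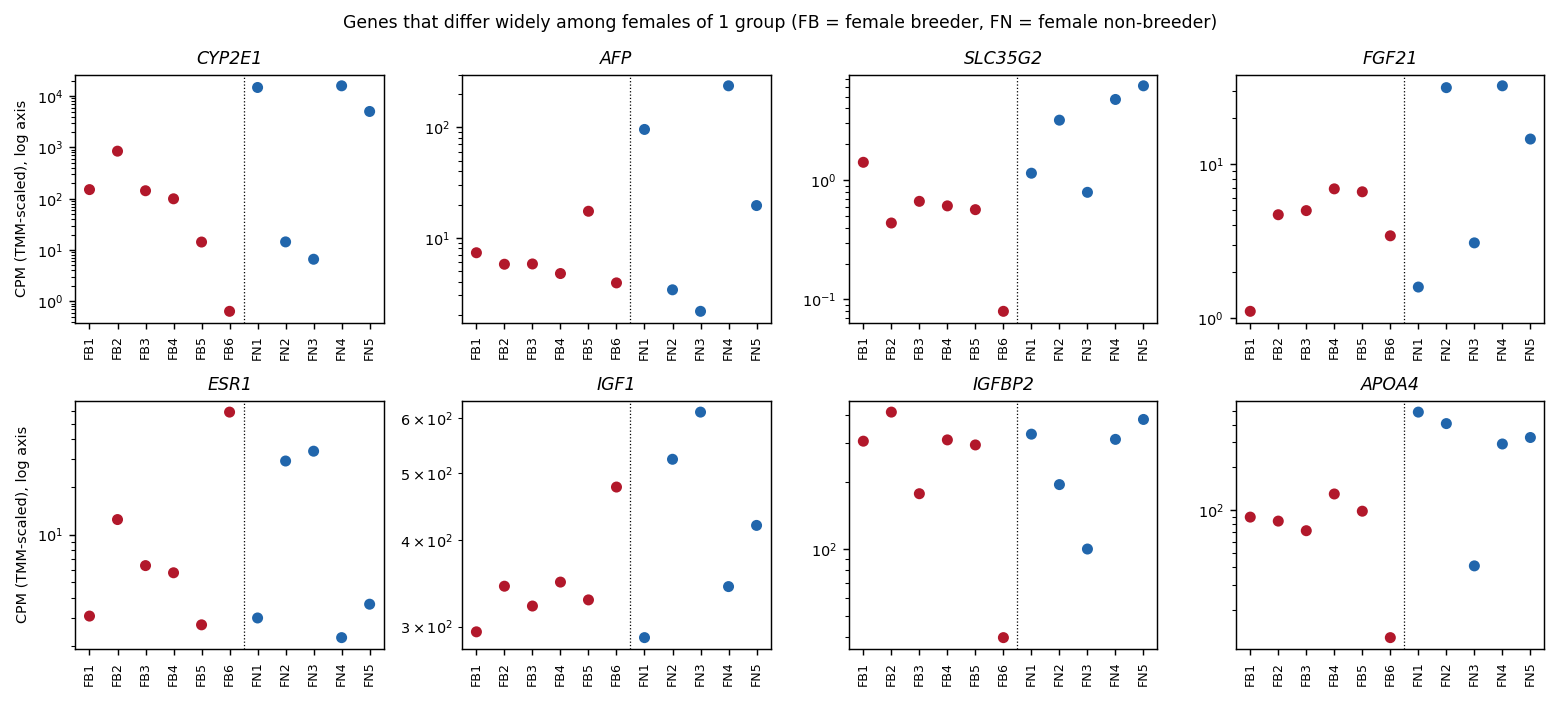
CPM on a log axis in each female library for 8 genes, with the 6 female breeders on the left of the dotted line and the 5 female non-breeders on the right. CYP2E1 runs from 0.637 CPM in female breeder 6 to 15907 CPM in female non-breeder 4. ESR1 and IGF1 are highest in female breeder 6 and in female non-breeders 2 and 3.

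Across 50 lists of liver functions and cell types, 0 had mean log2 CPM values that separated the groups, and no member passed the threshold in edgeR, while DESeq2 called SERPINA6 of the steroid and estrogen lists, PGLYRP2 of the acute phase list, and ACTC1 and ANKRD1 of the muscle markers. Proteasome subunits were the most uniform. Of 37 tested, 36 lay below 0, but the median was only -0.08 (-0.02 without female non-breeder 2), and PSMD1 alone had every breeder below every non-breeder (97.5 to 114 CPM with a median of 108 in female breeders, against 146, 127, 124, 117 and 127 CPM in female non-breeders). Among the lists by function, interferon-stimulated genes had the highest median, 0.16, with 30 of 38 above 0. It was 0.32 without female non-breeder 3. SAMD9, PARP14 and IFIT2, all antiviral response genes, had log2 fold changes of 0.70 ± 0.29, 0.37 ± 0.16 and 0.72 ± 0.34 (SE), with overlapping groups. Cell cycle genes were mixed at 12 above and 18 below 0. CCND1, a cyclin that drives entry into the cell cycle, lay between 15.9 and 57.8 CPM with a median of 25.9 in female breeders, against 93.1, 70.4, 26.3, 79.3 and 79.0 CPM in female non-breeders. Non-breeder 3 alone lay within the range of the breeders, and the log2 fold change was -1.22 ± 0.40 (SE). CDKN1B, an inhibitor of that entry, was at 0.49 ± 0.17 (log2 fold change ± SE). Ribosomal protein, respiratory chain, cholesterol synthesis, bile acid and mTOR signalling genes had medians between -0.03 and 0.03, and between -0.09 and 0.10 with single libraries left out.

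**Figure D4:**
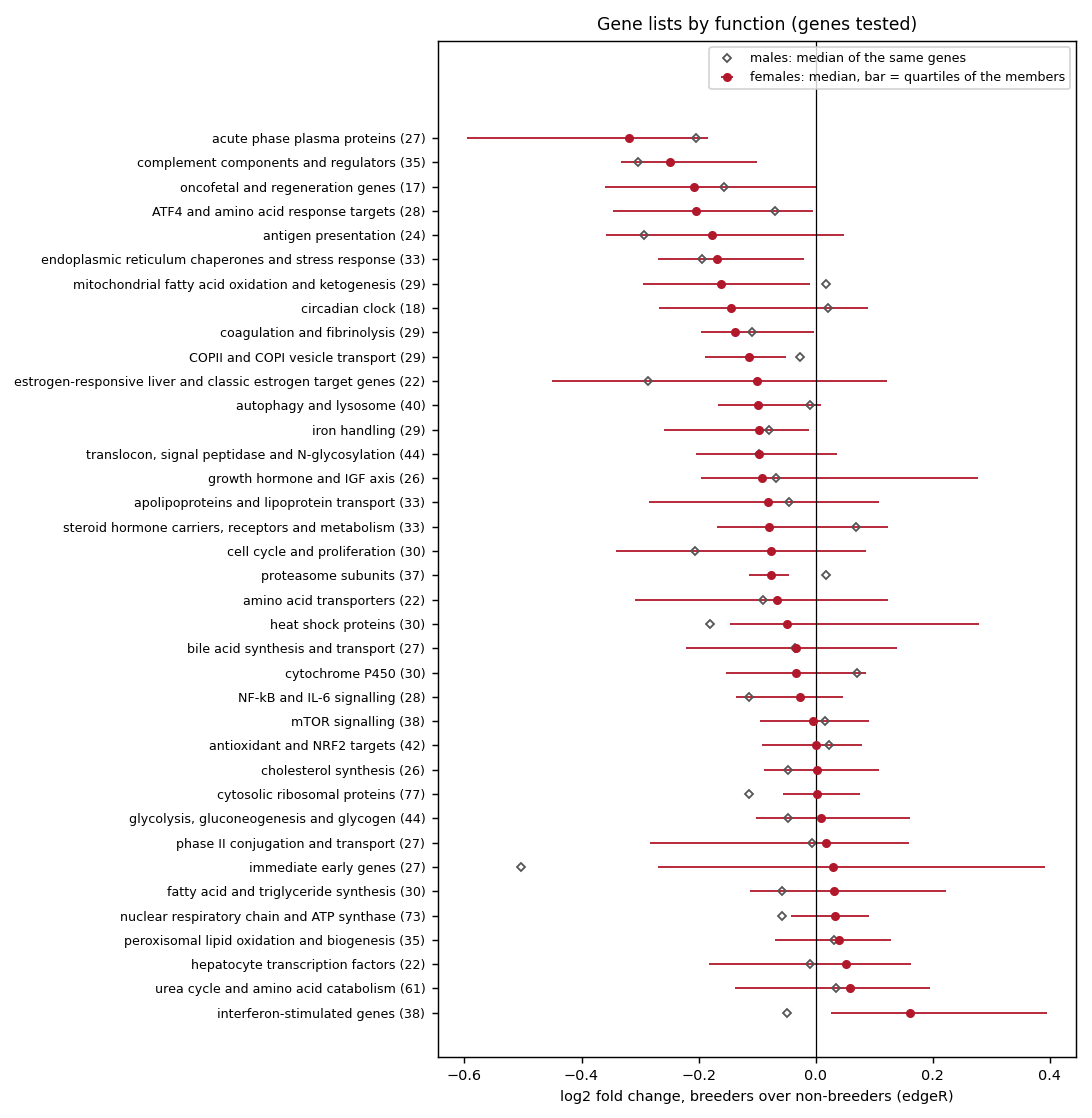
Median log2 fold change of breeders over non-breeders for each list of genes by function, with the number of genes tested. Filled points and bars give the median and quartiles of the members in females, and open diamonds the median of the same genes in males. Acute phase plasma proteins are at the low end (-0.32 in females, -0.20 in males) and interferon-stimulated genes at the high end (0.16 in females, -0.05 in males).

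Markers of cell types were examined for the same libraries. All 16 hepatocyte markers were tested, and their summed level lay between 146809 and 253168 CPM in female breeders and between 166690 and 244250 CPM in female non-breeders, with medians of 179753 and 220572 CPM and no marker at 0. Of these markers 13 lay below 0, with a median log2 fold change of -0.24 that was -0.11 without female non-breeder 1. Many of the markers, such as ALB, APOA1, TTR, HPX and AHSG, are themselves plasma protein genes, and CYP2E1 is another marker. They are thus not a measure of hepatocyte content separate from the plasma proteins. The part of this lean in the plasma protein and secretory lists was not tested. Summed levels of bile duct, stellate, endothelial and macrophage markers overlapped between the groups, with medians of 382, 754, 1012 and 905 CPM in female breeders, against 404, 670, 1029 and 908 CPM in female non-breeders. Of 12 tested erythroid markers, 10 lay below 0 with a median of -0.58, and of 15 neutrophil markers, 13 did with a median of -0.23 (-0.09 without female breeder 5 and -0.50 without female breeder 1). LCN2 is one of these neutrophil markers. Whether blood content has a part in any result was not tested.

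Striated muscle genes were high in 2 of the 6 female breeders. Of 40 muscle markers in the table, 17 were tested, 16 of these lay above 0, and their median was 0.60. ACTC1, cardiac actin, had 1386 and 972 reads in female breeders 2 and 6, at most 6 reads in the other 4 breeders and at most 6 in each female non-breeder. ANKRD1, a muscle stress protein, had 118 and 72 reads in the same 2 libraries and 0 in the other 9. Both had enough reads in too few libraries to pass the filter for edgeR, and both were called by DESeq2, with all of the excess in these 2 animals. TTN, the giant sarcomere protein titin, was at 14.4 and 11.9 CPM in them, at 0.474 CPM or less in the other 4 breeders and at 0.445, 0.438, 0.264, 0.514 and 1.22 CPM in female non-breeders. CKM, muscle creatine kinase, and TNNC1, a troponin, had log2 fold changes of 1.85 ± 0.70 and 1.01 ± 0.37 (SE). Without female breeders 2 and 6, a comparison added after the data were seen, the log2 fold change of TTN was -0.56 and the median of the list -0.26, and edgeR again called 0 genes.

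**Figure D5:**
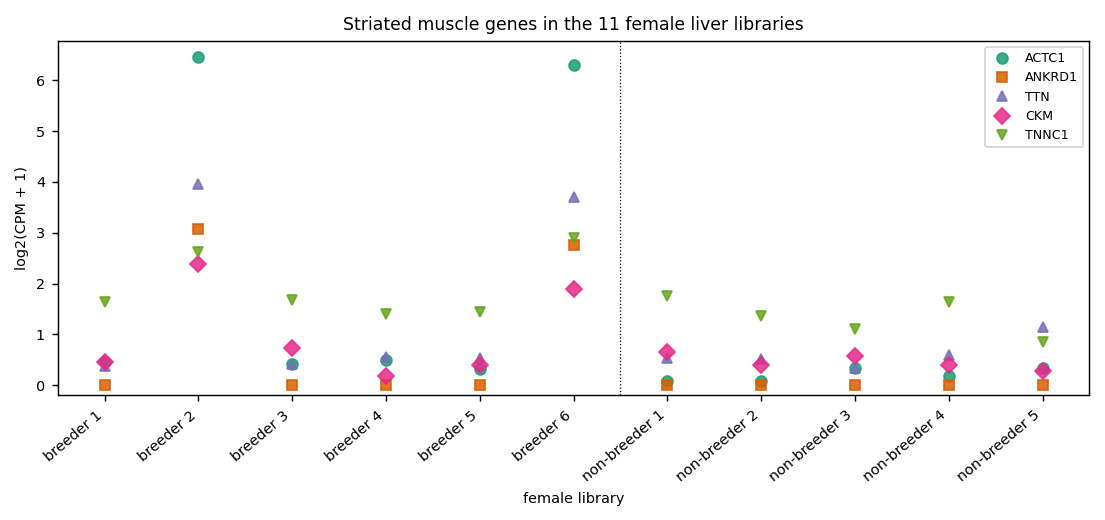
Level of 5 striated muscle genes, as log2 of CPM plus 1, in each female library, with female breeders left of the dotted line and female non-breeders right of it. Breeders 2 and 6 stand above all other libraries for each of the 5 genes.

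Breeders and non-breeders of the other sex are separate animals in the same fit, so their values can stand beside the female ones. Across the 12306 genes, the log2 fold changes by status in females and males had a Pearson r of 0.27, a description over genes that are not independent of one another. Of the 15 higher genes of smallest p in females, 13 lay above 0 in males, where 3629 of all 6415 genes above 0 in females did, and of the 15 lower genes, 13 lay below 0 in males, where 3788 of all 5891 did. Read lengths of the male libraries are not given here, and a part of read length in these shared signs was not tested. SERPINA6 was at 1.61 ± 0.37 in females and 1.28 ± 0.34 in males, and PGLYRP2 at -1.08 ± 0.23 in females and -0.67 ± 0.22 in males (log2 fold change ± SE). MED12L and CCND1 were also close, at 0.79 and -1.22 in females and 0.73 and -1.47 in males. SLC3A2 was at -0.51 ± 0.12 in females and -0.01 ± 0.12 in males, CGREF1 at -0.87 ± 0.19 and -0.12 ± 0.18, LPL at 1.20 ± 0.38 and -0.24 ± 0.37, and APOA4 at -1.93 ± 0.55 and 0.09 ± 0.52, females before males. In the test of the difference between the sexes, 0 of 12306 genes (0%) passed in edgeR. An unadjusted p under 0.05 was reached by 228 genes, where 615 would be expected if no gene differed. For this difference limma voom called 0, and DESeq2 called 1, ANKRD1, whose reads in females came from breeders 2 and 6 alone.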

How the data were processed

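Poly(A) RNA of liver was sequenced by the authors from libraries without strand marks, so a gene and its antisense partner share reads. They aligned single-end reads with STAR 2.4.1d (version also in the submitters' processing notes), discarded reads with several places, so that near-identical gene copies are uncertain, and counted the rest per gene with HTSeq. The values the authors deposited are whole-number read counts for each gene, not normalized. Replicate numbers follow accession order and pair no animals. Whether 1 animal gave each library was taken from the animal numbers in the titles.

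The analysis used edgeR 4.0.16 under R 4.3.3: filterByExpr (minimum count 10, minimum total 15), TMM scaling, 1 mean for each of 4 groups over all 23 libraries, the robust quasi-likelihood F-test (two-sided) and Benjamini-Hochberg adjustment over 12306 genes, threshold 0.05. Adjusted p-values in the text are edgeR's unless DESeq2 is named. SE was derived from the fold change and the F statistic (log2 fold change divided by the root of F), intervals are at 95%, and a prior count of 2 entered log2 CPM. Of all rows, 803 held no count, and 25 rows whose symbols had become spreadsheet dates were tested but go unnamed. Female breeder totals were 11826665 to 16969851 counts and female non-breeder totals 15209006 to 22969366. These depths cannot show a difference in genes with a few reads.

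The members and gene lists were chosen with earlier results of these data known. Named genes were the 15 of smallest p in each direction, up to 4 per list and direction, genes called by DESeq2 1.42.0, up to 10 per direction whose groups do not overlap, and a fixed set; those of smallest p, called by DESeq2 or not overlapping are all named, the others in part for length. A few members of these sets are not reported here. Lists were described by counts and medians, with no test of a list. Alternatives were DESeq2's scaling, no filter, DESeq2, limma voom (limma 3.58.1), only female libraries, age as a covariate, a threshold of 0.01 and left-out libraries. The test was checked on simulated data. The list of libraries that accompanies the study gives 1 read length for all female breeders and a slightly longer one for all female non-breeders, so if these mark separate sequencing runs, run and status cannot be told apart.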

Additional observations from a re-analysis of the deposited data

Results flagged for a closer look

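In 20 cases the highest or lowest animal of a female group stood far from the others by Dixon's test, which flags about 1 in 20 groups by chance. The number of groups examined is not given here, so the 20 cases cannot be set against that rate. No cause was tested for any of them.

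Among named genes, PTGES stood apart in female non-breeder 3 (10.9 CPM), C19orf10 in female breeder 4 (17.2 CPM), SERPINA7 in female non-breeder 4 (182 CPM) and CYP7A1, the rate-limiting enzyme of bile acid synthesis, in female non-breeder 2 (2.19 CPM). Female breeder 6 stood apart in APOA4 (12.8 CPM), IGF1 (477 CPM) and IGFBP2 (39.9 CPM). In APOA4, female non-breeder 3 stood apart as well (40.8 CPM).

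Among mean log2 CPM values of lists, female non-breeder 2 stood apart in ATF4 and amino acid response targets (5.28) and in bile acid genes (7.43), female non-breeder 1 in the urea cycle and amino acid breakdown (8.13) and in autophagy and lysosome genes (5.71), and female non-breeder 3 in interferon-stimulated genes (4.53). For the growth hormone and IGF axis these were female breeder 2 (4.74) and female non-breeder 4 (4.59), and for mTOR signalling female breeder 6 (4.03) and female non-breeder 4 (4.08). Female breeder 2 stood apart in NF-kB and IL-6 signalling (4.92), female breeder 5 in immediate early genes (2.55) and female breeder 1 in plasma cell markers (2.93).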

How the results depend on the processing

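In edgeR the count of genes differing by female status was 0 under each alternative run, and the smallest adjusted p with a single library left out was 0.224, without female non-breeder 2. No paired analysis was possible because the labels give no number or litter that links animals. DESeq2 called 5 genes over 23 libraries and 4 over the female libraries, and 1 gene in the difference between the sexes over 23 libraries. Genes with all breeders above were 25 without the filter, 33 without 3 libraries that earlier results showed to stand apart (female breeder 6, male breeder 5 and male non-breeder 3), 93 without female breeders 2 and 6, and between 25 and 68 with single female libraries left out. Genes with all breeders below were 39, 81 and between 24 and 63 under the last 3 of these. Fewer animals make separated groups easier to reach, so these counts are not comparable with the main ones. The differences that follow changed sign. With limma voom, log2 fold changes were 0.027 for ALB, -0.54 for ESR1, 0.080 for IGFBP2, 0.49 for CYP7A1, 0.066 for NR3C1 and -0.0081 for MTRNR2L4, a humanin-like gene. With age as a covariate, ALB was at 0.022 and CYP7A1 at 0.064. Without the 3 libraries, ALB was at 0.078, ESR1 at -1.24, IGFBP2 at 0.19, CYP7A1 at 0.053, NR3C1 at 0.061 and MTRNR2L4 at -0.11. Without female breeders 2 and 6, TTN was at -0.56, CKM at -0.038, KIF4A, a mitotic kinesin, at 0.059, ALB at 0.10, ESR1 at -1.68, IGFBP2 at 0.046, CYP7A1 at 0.031, NR3C1 at 0.14 and MTRNR2L4 at -0.10. KIF4A had at most 7 reads in each female library and at least 228 in each male library, and it passed the filter through the males. With single libraries left out, ranges that crossed 0 were -0.17 to 0.089 for ALB, -1.24 to 0.66 for ESR1, -0.24 to 0.19 for IGFBP2, -0.72 to 0.34 for HAMP, hepcidin, -0.43 to 0.17 for CYP7A1, -0.20 to 0.061 for NR3C1 and -0.11 to 0.38 for MTRNR2L4. List medians moved beyond the spread between libraries for muscle markers (-0.056 with limma voom, -0.26 without female breeders 2 and 6), pancreas markers (-1.04 with only female libraries, -0.90 without the 3 libraries), mTOR signalling (0.042 without the 3 libraries, -0.023 to 0.041 with single libraries left out), estrogen-responsive genes (-0.26 without female breeders 2 and 6) and plasma cell markers (-0.89 to -0.12 with single libraries left out). The causes were not tested. Removing 2 breeders was chosen after seeing the data. The difference between the sexes could not be fitted with only female libraries.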

Other observations

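Genes for zinc finger transcription factors lay mostly above 0, a group chosen after its values were seen. ZNF266, ZNF345 and ZSCAN30 were among the 15 higher genes of smallest p. Of 251 tested genes with a name of ZNF, ZSCAN or ZKSCAN and a number, 184 lay above 0 and 67 below in female breeders over female non-breeders, with a median log2 fold change of 0.14, while 6415 of all 12306 genes lay above 0. An unadjusted p under 0.05 was reached by 12 of them above 0 and 0 below, and none passed the adjusted threshold in edgeR. In males the median of the same genes was 0.16. They are low in level, with a median of 3.74 CPM over the female libraries.

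Of 30 markers of stellate cells, fibroblasts and matrix, 15 lay above 0 and 15 below in females (median -0.02), and 1 above and 29 below in males (median -0.34). The 2 members of smallest p in females lay on opposite sides of 0 in the sexes. DCN, decorin, was at 0.75 ± 0.32 in females and -0.59 ± 0.31 in males, and DPT, dermatopontin, was at 1.36 ± 0.62 in females and -0.75 ± 0.59 in males (log2 fold change ± SE). Neither difference between the sexes passed the threshold in edgeR.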
